A study of Mus musculus with 14 samples.

Results

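The gene expression of undivided hippocampal CA3 was described in 5 adult wild-type (WT) mice, which make up 5 of the 14 arrays of the series and were taken by their title, WT. The mice carry the animal numbers 145, 206, 142, 199 and 144, are of the Sv129Pas background strain, and received no treatment that the labels name. In each of them CA3 was cut out by microdissection in 1 piece. The other 9 arrays come from adult animals of the genotype labelled Dcx, also on Sv129Pas, in which the series design names a doublecortin knockout. Their CA3 was divided into an external stratum pyramidale (SPE, 5 arrays of animals 147, 146, 165, 166 and 148) and an internal one (SPI, 4 arrays of animals 147, 146, 166 and 148). RNA came from pooled microdissected material. The labels do not say whether material was pooled within or between mice, nor give sex, age in days or the hour of dissection. Each WT array bears 1 animal number and was counted as 1 mouse. Spreads between arrays hold biological and technical differences together, because no mouse was hybridised more than once.

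CA3 is the field of the hippocampus whose pyramidal cells receive the mossy fibres of the dentate granule cells and excite each other through recurrent collaterals. Its pyramidal cells use glutamate and carry kainate receptors at the mossy fibre synapse. The tissue also holds interneurons, astrocytes, oligodendrocytes, microglia and vessels, so an array of the whole field reads them all. In such bulk samples fewer cells of a type and less RNA per cell cannot be told apart. The 4 genes taken as markers of the field were detected on all 5 arrays, with no sign against the label. On the log2 scale of background-corrected bead signal, Slc17a7, the vesicular glutamate transporter VGLUT1, was at 12.89, 13.77, 13.10, 13.32 and 13.32 in mice 145, 206, 142, 199 and 144. Cpne4, a copine that marks CA3, was at 12.91, 12.56, 12.55, 12.51 and 12.63 in the same order of mice. Bok, a Bcl-2 family member, was at 12.47, 12.35, 12.28, 12.70 and 12.41, and Nectin3, an adhesion protein, was at 11.33, 11.21, 11.30, 11.18 and 11.27. Their means stood at the 99.4, 98.7, 98.4 and 95.5 percentile of all 16593 measured genes, so all 4 lay in the brightest part of the array. Mouse 206 was highest for Slc17a7 and mouse 145 highest for Cpne4, and Nectin3 was within 1.11-fold between any of the 5 mice.

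The mean bead signal of the WT arrays was 456 ± 54.1 (SD, n = 5) and ran from 371 in mouse 199 to 515 in mouse 142. The bead array carried 25697 probes. Between 11303 and 11988 of them were detected per WT mouse, where a probe counts as detected when its detection p-value, the share of negative control beads at least as bright, is under 0.05. Mean signal was 279 to 482 on the SPE arrays and 119 to 362 on the SPI arrays. A Dcx probe checks the labels only as far as it lies in the deleted part, and the labels do not say which part that is. With all 14 arrays normalised together, the brightest Dcx probe read 5.50 to 5.92 in WT mice (detected on 5 of 5 arrays), 4.85 to 5.79 in SPE arrays (5 of 5) and 4.64 to 5.64 in SPI arrays (3 of 4). Another Dcx probe read 5.15 to 6.12 in WT mice (5 of 5), 4.90 to 5.34 in SPE arrays (4 of 5) and 4.54 to 4.90 in SPI arrays (0 of 4), and the last of the 3 was detected on no array.

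Of the 16593 genes with a named probe, 7414 had a brightest probe detected on all 5 WT arrays, which is 44.7% of the measured genes and the share against which each group of genes below is read. A further 7184 genes (43.3%) were detected on none, and 1995 lay between. Signal was spread over many genes. The 10 brightest genes held 2.59% ± 0.08 of the summed background-corrected signal, the 100 brightest 19.5% ± 0.07 and the 1000 brightest 66.9% ± 0.10 (SD, n = 5). Quantile normalisation gives every array the same set of values, so the small SDs of these shares follow from it. Detected genes had a median log2 signal of 8.09, against 4.40 for genes detected on no array, which is the floor of the scale. Probes bind their targets with unequal strength, so a percentile here ranks probe signal and not RNA molecules, and a probe that was not detected says nothing of whether its gene is expressed.

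The brightest groups of genes served energy supply, protein synthesis and transmitter release. All 13 measured glycolytic enzymes were detected on all 5 arrays, with a median signal percentile of 98.9. Gapdh averaged 14.15 ± 0.12, Tpi1 (triosephosphate isomerase) 13.93 ± 0.04 and Eno2, the neuronal enolase, 13.92 ± 0.06 (log2 signal, mean ± SD, n = 5). Complex I, the entry point of electrons into the respiratory chain, had 31 of 34 members detected and a median percentile of 97.7. Complexes II to V had 37 of 47 and 95.5, with the ATP synthase subunit Atp5b at 14.24 ± 0.13 near the top of the array. Cytosolic ribosome proteins had 54 of 61 detected and a median percentile of 95.7, and proteasome subunits 30 of 36 and 94.0. Together the 61 measured cytosolic ribosome proteins held 3.41% of the summed signal and the 38 genes of synaptic vesicles and release 2.26%. In the release group, 29 of 38 were detected, led by Syt11 at 14.18 ± 0.06, Sh3gl2 (endophilin A1) at 14.00 ± 0.06, Syp (synaptophysin) at 14.00 ± 0.04 and Cplx1 (complexin 1) at 13.90 ± 0.15. Probes of Snap25 and Bsn, a SNARE protein and an active zone scaffold of the same machinery, were detected on no array. The postsynaptic density group had 17 of 22 detected, with the kinase subunits Camk2b at 14.13 ± 0.15 and Camk2a at 12.89 ± 0.07 and the calcineurin subunit Ppp3cb at 14.01 ± 0.09.

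**Figure D1:**
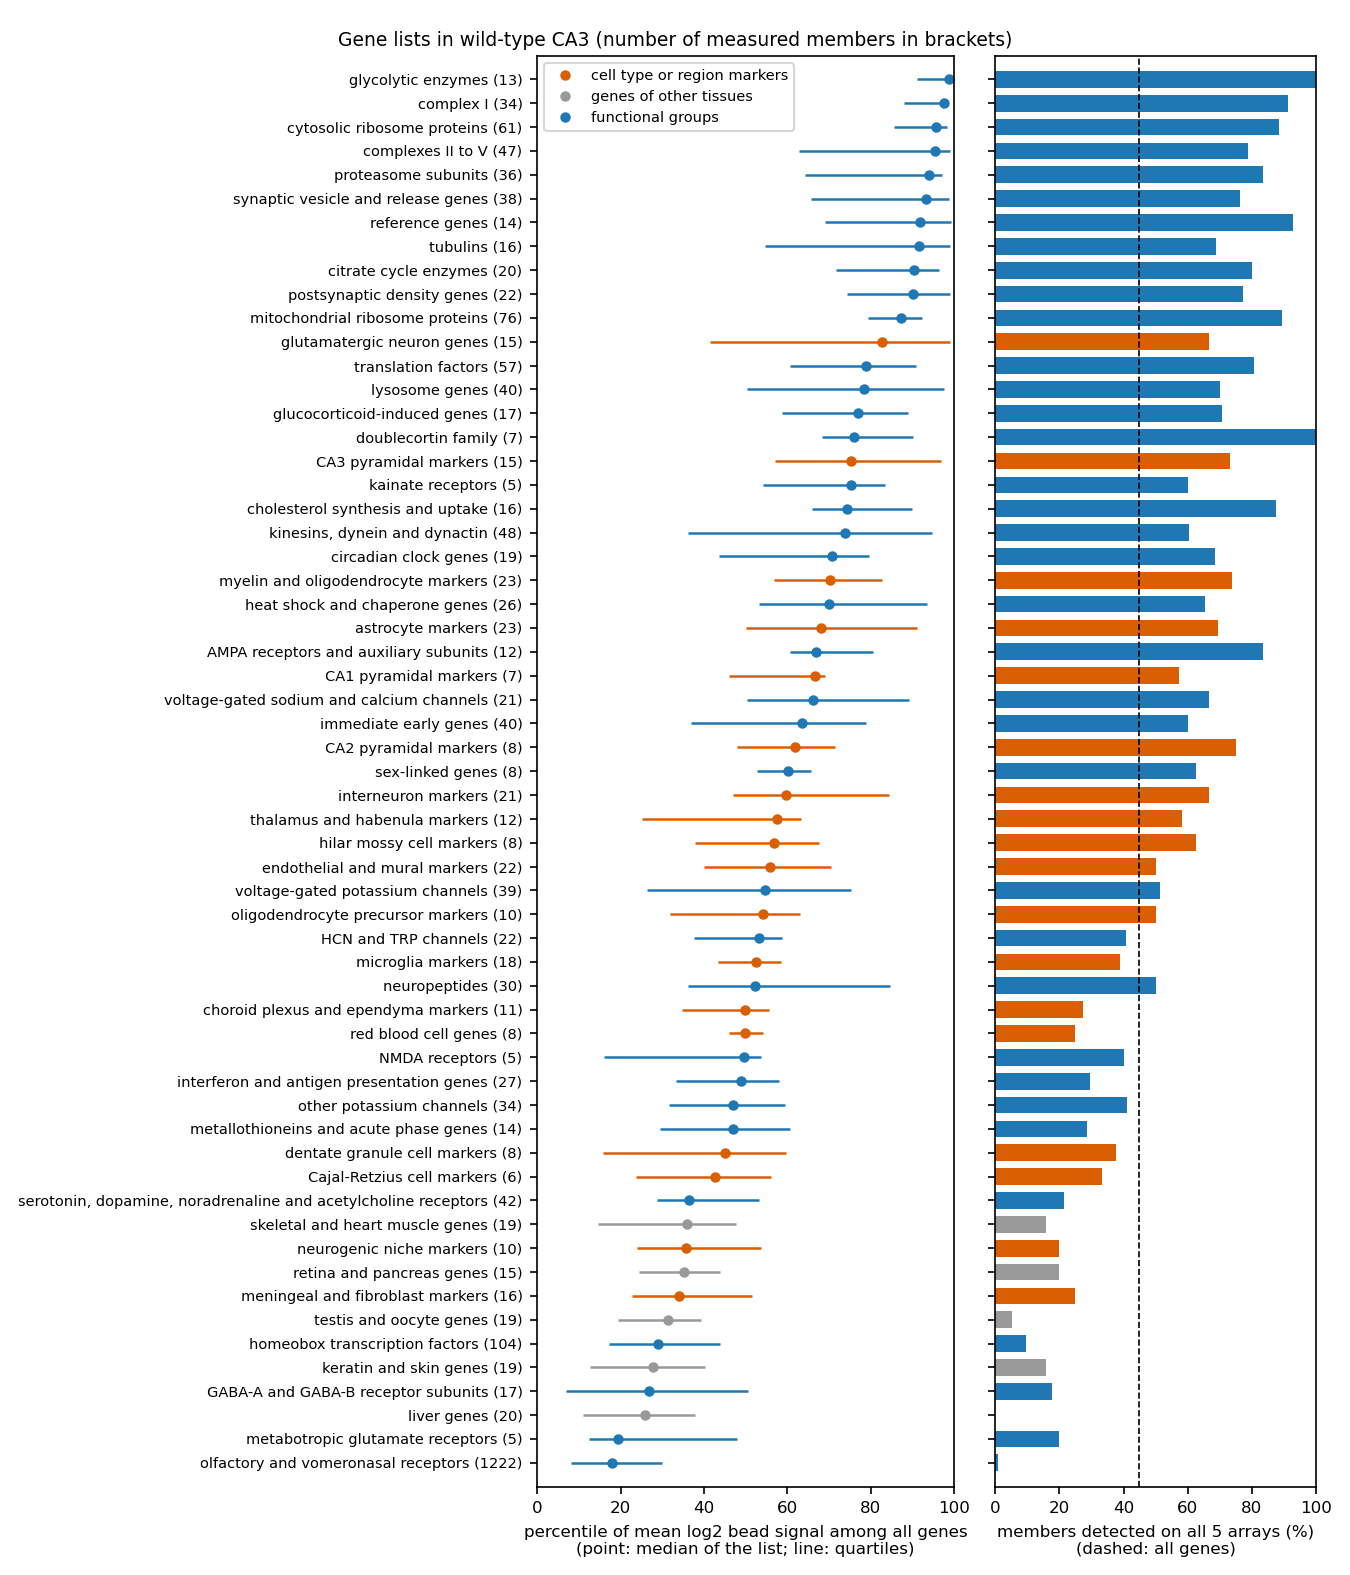
Signal rank (left; point, median of the list; line, lower to upper quartile of its members) and share of members detected on all 5 arrays (right, %) for 59 gene lists in the 5 WT mice, with the number of measured members in brackets. The dashed line marks the 44.7% of all genes detected on all 5 arrays; glycolytic enzymes stand at the top with a median percentile of 98.9 and olfactory and vomeronasal receptors at the bottom with 17.9.

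At the other end stood tissue genes that adult brain is not known for and several groups of receptors, some of them receptors of the brain. Metabotropic glutamate receptors had 1 of 5 measured members detected on all 5 arrays and a median percentile of 19.3. GABA-A and GABA-B receptor subunits had 3 of 17 and 26.8. Olfactory and vomeronasal receptors, the largest gene family of the mouse, had 11 of 1222 members detected on all 5 arrays (0.90%) and a median percentile of 17.9. The brightest of the 11 was Olfr724 at 5.57 ± 0.25, close to the floor. Liver genes had 0 of 20 detected, testis and oocyte genes 1 of 19 and keratin and skin genes 3 of 19. The exceptions were few and carried clear signal in part. Krt10, a keratin, averaged 9.28 ± 0.18, Lor (loricrin) 9.13 ± 0.07, and Acta1, the skeletal muscle actin, 7.90 ± 0.16. Pvalb (parvalbumin), listed for muscle as well as for interneurons, was at 11.39 ± 0.07. Homeobox transcription factors had 10 of 104 detected, of which Satb1 at 10.36 ± 0.14, Meis2 at 8.03 ± 0.37 and Pbx2 at 7.89 ± 0.20 were the brightest. Receptors for serotonin, dopamine, noradrenaline and acetylcholine had 9 of 42 detected, led by the muscarinic receptor Chrm3 at 8.73 ± 0.23. Of 8 measured sex-linked genes, the Y-linked Eif2s3y (6.03 ± 0.24) and Uty (5.74 ± 0.12) were detected in all 5 mice, and the probe of Xist, which is transcribed from the inactive X, in none.

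The 15 measured genes of the wider CA3 marker list had 11 members detected on all 5 arrays, a median percentile of 75.2 and 0.475% of the summed signal. Dkk3, a secreted Wnt modulator, averaged 12.95 ± 0.08, Socs2, a cytokine signalling suppressor, 10.94 ± 0.23, Nptx1 (neuronal pentraxin 1) 8.26 ± 0.46 and Grik4, a kainate receptor subunit, 7.71 ± 0.28. The other members detected on all 5 arrays, Prss35 (6.87 ± 0.36), Cpne7 (6.03 ± 0.22) and Iyd (5.43 ± 0.39), were dimmer. St18 was detected in 4 of 5 mice, Cdh24 in 2, Coch in 1 and Plagl1 in none. The lists of neighbouring fields and of hilar mossy cells had lower median percentiles. The CA2 list had 6 of 8 members detected and a median percentile of 61.8, with Amigo2, an adhesion protein, at 9.56 ± 0.32 and Rgs14, a regulator of G protein signalling, at 5.55 ± 0.27. The probes of its members Pcp4 and Fgf2 were detected on no array. The CA1 list had 4 of 7 and 66.7, with Mpped1 at 7.40 ± 0.06, Wfs1 (wolframin) at 7.09 ± 0.20 and Fibcd1 at 6.50 ± 0.33. The dentate granule cell list had 3 of 8 and 45.2. Prox1, the transcription factor that defines granule cells, was detected in 1 of 5 mice, while Rasl10a was at 9.81 ± 0.21. The hilar mossy cell list had 5 of 8 detected and a median percentile of 56.7. Its brightest members were Ap2s1 at 12.72 ± 0.20 and Ociad2 at 11.42 ± 0.22. Calb2 (calretinin) was at 5.40 ± 0.45 and Drd2, a dopamine receptor, at 5.36 ± 0.26. Summed over the list, CA3 markers took 438.45 to 517.62 of every 100000 units of signal across the mice and hilar mossy cell markers 122.10 to 143.76. CA2 markers took 13.02 to 20.68, CA1 markers 5.69 to 9.05 and dentate markers 11.79 to 16.15. The lists differ in number of genes. A few bright probes, such as Slc17a7 for CA3 and Ap2s1 for mossy cells, can make up much of a sum. Slc17a7 is also on the list of glutamatergic neuron genes. These sums therefore do not measure shares of cells or the purity of the dissection.

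**Figure D2:**
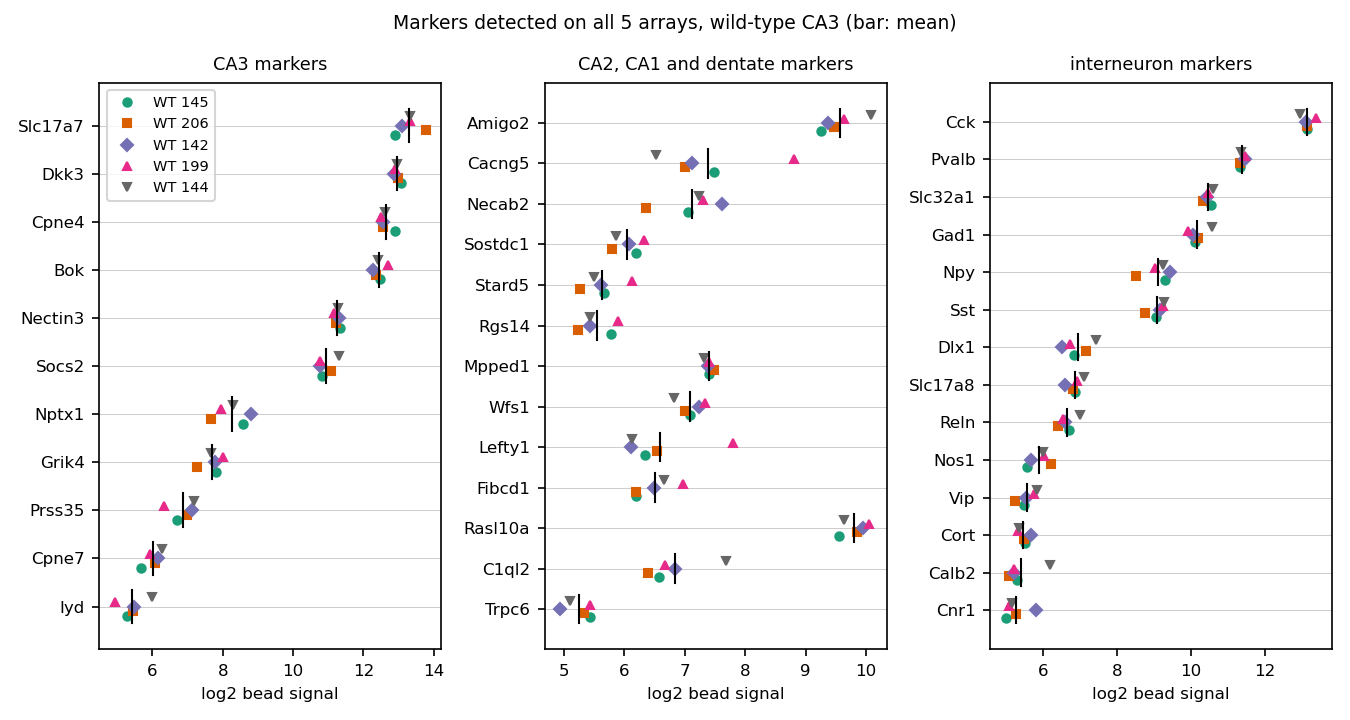
Log2 bead signal (x axis) of the markers detected on all 5 arrays, by mouse (symbols) with the mean as a bar, for CA3 (left), for CA2, CA1 and dentate gyrus (middle, in that order) and for interneurons (right). The CA2 gene Cacng5 and the CA1 gene Lefty1 stand apart in mouse 199, and Calb2 and C1ql2 in mouse 144.

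Interneuron genes were well represented. Of 21 measured, 14 were detected on all 5 arrays, including the GABA-synthesising enzyme Gad1 at 10.17 ± 0.24, the vesicular GABA transporter Slc32a1 at 10.47 ± 0.10, Sst (somatostatin) at 9.09 ± 0.20 and Npy (neuropeptide Y) at 9.11 ± 0.37. Cck (cholecystokinin), which pyramidal cells also make, was the brightest at 13.16 ± 0.16, and Vip was dim at 5.57 ± 0.23. The probe of Gad2 was detected on no array. Astrocyte markers had 16 of 23 detected, with the glutamate transporter Slc1a3 at 11.32 ± 0.04, the gap junction protein Gja1 at 10.33 ± 0.14 and Apoe at 10.19 ± 0.29. The probes of Gfap, S100b and Glul were not detected on all 5. Myelin and oligodendrocyte markers had 17 of 23 detected, led by Mbp (myelin basic protein) at 12.08 ± 0.25. Microglia markers had 7 of 18, with Laptm5 at 7.94 ± 0.32 and Cx3cr1, the fractalkine receptor, at 6.14 ± 0.24. Endothelial and mural markers had 11 of 22, with Egfl7 at 10.84 ± 0.09 and the glucose transporter Slc2a1 at 9.43 ± 0.28. Choroid plexus and meningeal lists had median log2 signals of 4.84 and 4.49, near the floor, with 3 of 11 and 4 of 16 detected. Their detected members were brighter. In the meningeal list Ptgds averaged 9.02, Igf2 7.39, Igfbp2 6.57 and Mgp 5.89, and in the choroid plexus list Kl 6.45, Sostdc1 6.05 and Foxj1 5.60. Ttr (transthyretin), the defining gene of choroid plexus, was detected in mouse 206 alone at 6.19, against at most 4.77 in the other mice.

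Among glutamate receptors, the AMPA subunits Gria2 at 12.49 ± 0.20 and Gria1 at 11.77 ± 0.18 were the brightest, and 10 of 12 AMPA receptor genes were detected on all 5 arrays. Of the kainate receptor genes, Grik5 read 8.55, 9.63, 9.18, 9.78 and 8.86 in mice 145, 206, 142, 199 and 144, and the auxiliary subunit Neto1 read 9.25, 8.57, 9.22, 8.39 and 9.19. The 2 did not follow each other: mouse 199 was highest for Grik5 and lowest for Neto1. The Grik2 probe was detected on no array. NMDA receptor probes were dim, with Grin2a at 5.04 ± 0.21 and Grin2c at 5.42 ± 0.28, and GABA receptor probes had 3 of 17 detected, led by Gabrb1 at 9.36 ± 0.19 and Gabbr1 at 7.95 ± 0.23. Voltage-gated potassium channels had 20 of 39 detected, from the auxiliary subunit Kcnab2 at 13.41 ± 0.09 through Kcnc1 at 10.72 ± 0.08 to Kcnd2 at 8.97 ± 0.46. The pacemaker channel Hcn2 was at 10.05 ± 0.17. The 7 genes of the doublecortin family and its Lis1 partners were all detected, with Ndel1 at 11.47 ± 0.18, Dclk1 at 9.98 ± 0.10, Dclk2 at 10.17 ± 0.10 and Dcx itself, a gene of young neurons, at 6.03 ± 0.25.

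The single brightest gene was Ckb, the brain creatine kinase, at 14.33, 14.24, 14.24, 14.30 and 14.37 in mice 145, 206, 142, 199 and 144. It was followed by Prnp, the prion protein, at 14.26 ± 0.08, Rplp1 at 14.26 ± 0.07, the tubulins Tuba1b at 14.25 ± 0.07 and Tubb5 at 14.13 ± 0.07, and Hpca (hippocalcin), a calcium sensor of hippocampal neurons, at 14.20 ± 0.07. Also among the 30 brightest were Thy1 at 14.10 ± 0.07, Olfm1 at 14.10 ± 0.08, Rtn1 at 14.11 ± 0.07, the proton pump subunit Atp6v1e1 at 14.09 ± 0.05, the sodium pump subunit Atp1b1 at 14.04 ± 0.09 and ferritin heavy chain Fth1 at 14.13 ± 0.09. The 30 means lay between 13.98 and 14.30, and their SDs between 0.045 and 0.17, so that neighbours in this order do not differ beyond their spread. The ubiquitin pseudogene Ubb-ps at 14.22 ± 0.10 is a near copy of Ubb, and its probe may read both.

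Between mice, the median SD over the 7414 genes detected on all 5 arrays was 0.17 on the log2 scale, and the lower and upper quartiles were 0.12 and 0.24. The highest mouse exceeded the lowest by a median of 1.35-fold. For 257 genes (3.47%) this ratio was above 2, and for 30 genes (0.41%) above 3. Spread depended on level. The median SD was 0.23 over the 741 genes with mean log2 signal between 5.58 and 6.14, and 0.12 over the 742 brightest genes. Each SD was therefore also divided by the median SD of the 500 genes nearest in level. Between pairs of arrays, Pearson's r across these genes ran from 0.985 (mice 199 and 144) to 0.993 (mice 145 and 142); genes are not independent replicates, and r is a description. With 5 arrays, deviations from the gene means can fall along only 4 directions. The first, with 35.9% of the variance, set mouse 199 against mouse 144, and the second, with 33.3%, set mouse 206 against mice 145 and 142. The other 2 held 16.5% and 14.3%.

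**Figure D3:**
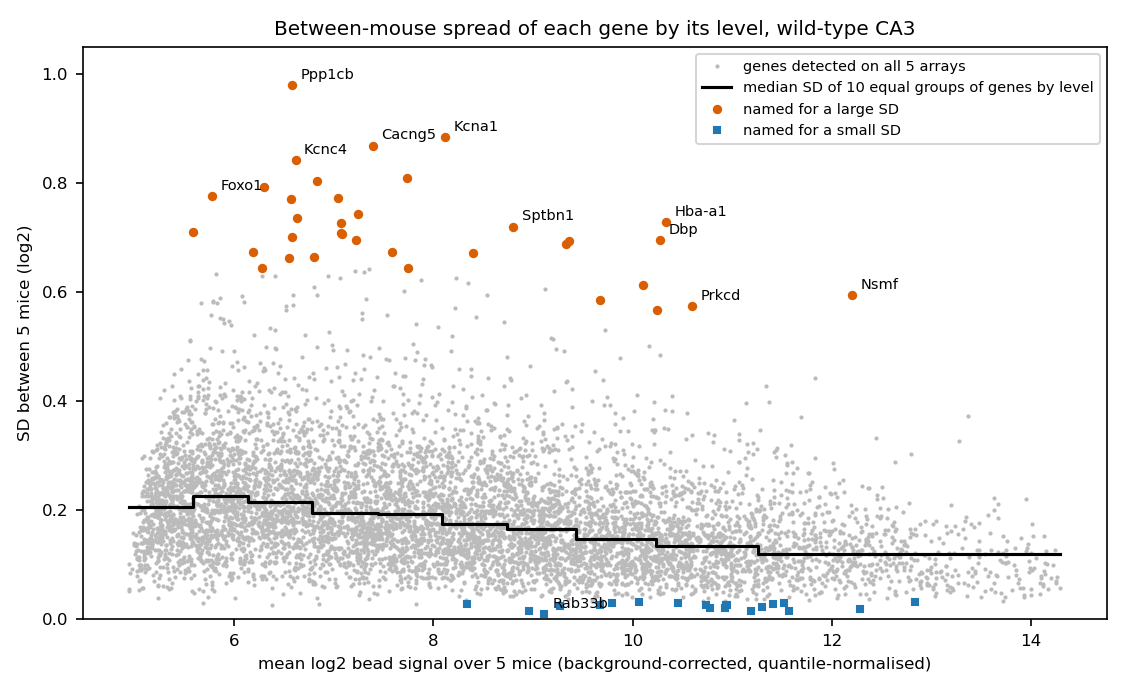
SD between the 5 WT mice (y axis, log2) against mean log2 bead signal (x axis) of the 7414 genes detected on all 5 arrays, with the median SD of 10 equal groups of genes by signal as a stepped line. The genes named for a large SD lie up to 5.14 times above genes of similar level (Hba-a1), and the genes named for a small SD lie between 0.010 and 0.032.

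The widest gene was Ppp1cb, a catalytic subunit of protein phosphatase 1. It read 7.59, 5.94, 7.02, 5.21 and 7.16 in mice 145, 206, 142, 199 and 144, a 5.23-fold range. Its second detected probe gave 7.54, 5.65, 6.38, 5.58 and 6.97 in the same order, again high in mouse 145 and low in mice 206 and 199. Several genes had a like split. Slc6a15, a neutral amino acid transporter, read 7.99, 6.23, 7.57, 6.31 and 7.10, and Sptbn1, a beta spectrin of the membrane skeleton, read 9.73, 7.90, 9.30, 8.52 and 8.55. Efr3a, which anchors a lipid kinase at the plasma membrane, read 8.34, 6.79, 8.08, 6.99 and 7.74, and the predicted gene Gm5643 8.17, 6.47, 7.78, 6.57 and 7.22. In all 4, mice 145 and 142 were the higher and mouse 206 was the lowest. The initiation factor subunit Eif3c was highest in mouse 142, at 7.89, and lowest in mouse 206, at 6.17. Of the 741 genes with the largest SDs, mice 142 and 145 were the 2 highest for 134, the most frequent pair. Mice 199 and 206 followed with 121 and mice 144 and 206 with 108, and mice 145 and 206 were the rarest pair with 16. Pairs were not counted over all detected genes, so these counts are not shown to be particular to genes with a large SD.

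Mouse 144 was highest for 9 of the 30 genes with the largest SD. Over all detected genes it was highest for 1817 of 7414, also the most of any mouse, and among the 741 genes with the largest SDs for 141, fewer than mice 199 (159), 145 (156) and 206 (150). Kcnc4, a fast potassium channel, read 6.34, 5.86, 7.08, 5.95 and 7.85 in mice 145, 206, 142, 199 and 144. Rprm (reprimo), a p53 target that arrests the cell cycle, read 5.70, 6.10, 6.22, 5.79 and 7.66, and the forkhead transcription factor Foxo1 read 5.89, 5.34, 5.54, 5.06 and 7.05. In each, mouse 144 lay above the other 4 mice, of which mouse 142 came nearest for Kcnc4. Smoc1, a calcium-binding matrix protein, read 6.22, 6.28, 6.71, 6.06 and 7.87, Timp2, an inhibitor of metalloproteinases, 8.75, 9.07, 9.50, 8.89 and 10.46, and Loxl1, a cross-linker of elastin, 7.68, 8.40, 8.37, 8.04 and 9.48. Ntn5, of the netrin family, was at 7.67 in mouse 144 and at most 6.49 in the other mice. Among listed markers, mouse 144 was also highest for C1ql2, a synaptic organiser of mossy fibres, at 7.67 against at most 6.84, and for Calb2 at 6.19 against at most 5.28. The summed signal of the dentate list in mouse 144 (13.64 per 100000) was inside the range of the other mice, with Prox1 detected in mouse 142 alone, and so was that of the CA2 list (18.69 per 100000). Prkcd, a protein kinase C that marks thalamus, was lowest in mouse 144, at 11.10, 10.77, 10.54, 10.95 and 9.64 in the same order of mice. The thalamus and habenula list summed to 15.03 per 100000 in mouse 144 against 24.40 to 33.06 in the other mice. Prkcd, with a mean of 10.60, was the brightest member of that list and weighs most in the sum. By median deviation the list was highest in mouse 144, at 0.16, with 3 of 7 detected members highest and 1 lowest there. The part of neighbouring tissue in these values was not tested.

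**Figure D4:**
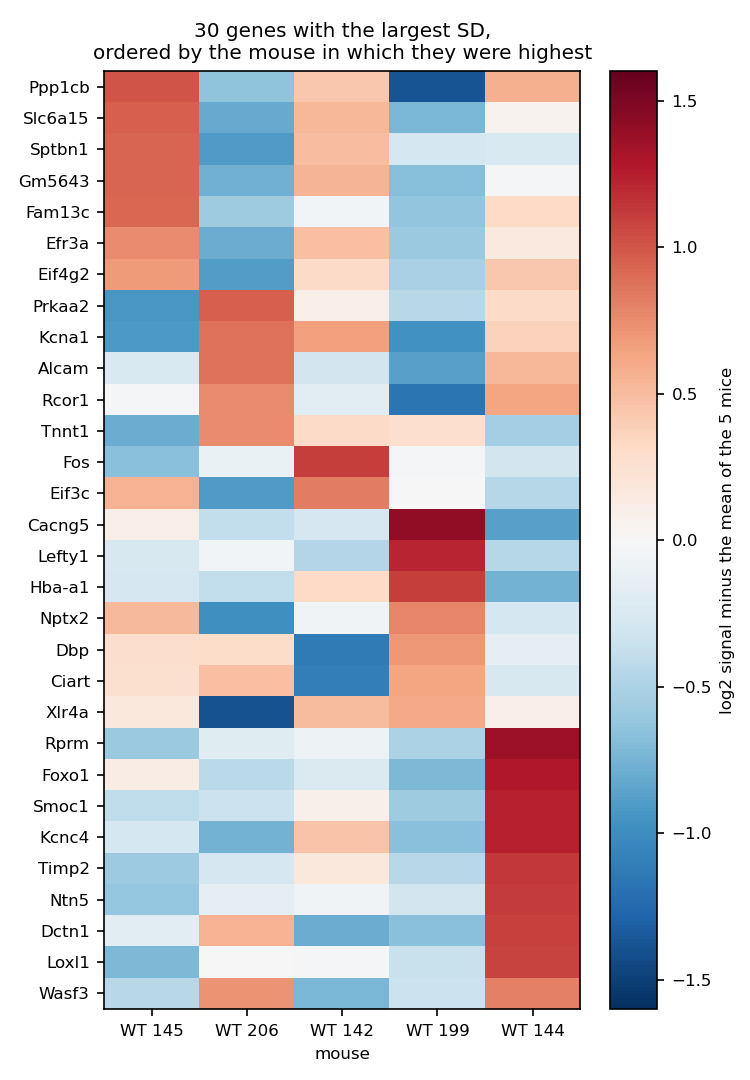
Log2 signal of each mouse minus the mean of the 5 mice (colour) for the 30 genes with the largest SD, grouped by the mouse in which each was highest. Mouse 144 is highest for 9 of them, mice 145 and 199 for 7 each, mouse 206 for 5 and mouse 142 for 2.

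Mouse 199 read highest for a red blood cell gene and for several markers of CA2 and CA1. Hba-a1, an alpha globin, read 10.06, 9.94, 10.65, 11.44 and 9.59 in mice 145, 206, 142, 199 and 144, a 3.62-fold range, and its SD was 5.14 times that of genes of similar level, the highest such ratio. Slc4a1, the anion exchanger of the red cell membrane, read 6.05, 5.91, 5.64, 6.29 and 5.43, again highest in mouse 199 and lowest in mouse 144. The alpha globin genes are near copies, so the probe may read more than 1 of them. The other listed red cell genes were dim, with Hbb-b2 and Hbb-bt detected in 3 of 5 mice each, and the list summed to 39.29 per 100000 in mouse 199 against 11.29 to 23.02 in the other mice. Cacng5, an AMPA receptor auxiliary subunit listed for CA2, read 7.49, 7.00, 7.12, 8.81 and 6.52, and its second probe read 6.33, 6.30, 6.17, 7.58 and 5.64. Both put mouse 199 highest and mouse 144 lowest. Lefty1, an antagonist of TGF-beta family signals listed for CA1, read 6.33, 6.55, 6.11, 7.80 and 6.13. Mouse 199 was highest for 4 of 6 detected CA2 markers and 3 of 4 detected CA1 markers, against 1686 of all 7414 detected genes. The median deviation of mouse 199 was 0.31 over the CA2 list and 0.35 over the CA1 list, against -0.086 over the CA3 list and -0.003 over all detected genes. Other lists were also above their mean in mouse 199, with median deviations of 0.24 for hilar mossy cell markers (3 of 5 highest there), 0.25 for Cajal-Retzius cell markers, 0.18 for dentate markers and 0.31 for kainate receptors. The part of the dissection border and of blood in these values was not tested.

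Other genes with a large SD followed other orders of the mice. Kcna1, a delayed rectifier potassium channel, read 7.19, 8.99, 8.77, 7.14 and 8.48 in mice 145, 206, 142, 199 and 144, with mice 145 and 199 low together. Dctn1, the large subunit of dynactin, read 7.55, 8.29, 6.94, 7.07 and 8.83 and was highest in mouse 144. Xlr4a, of the X-linked Xlr family, whose copies are much alike, read 7.01, 5.45, 7.34, 7.44 and 6.95 and was low in mouse 206 alone. Nptx2, a pentraxin that clusters AMPA receptors, read 9.88, 8.38, 9.30, 10.14 and 9.08, with mouse 206 low. Nsmf, which carries signals from synaptic NMDA receptors to the nucleus, was both bright and variable at 12.43, 11.46, 12.63, 12.82 and 11.70, and its SD was 4.92 times that of genes of similar level. Its second probe gave 11.28, 11.51, 11.72, 11.89 and 11.41, with an SD of 0.25 against 0.59. The glycolytic enzyme Pfkp read 10.79, 9.45, 10.64, 10.11 and 9.54, and within its pathway Pfkp and Hk1 were the only 2 of 13 to range over more than 2-fold.

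A second probe of the same gene was used to see whether such spread recurs. For 1746 genes 2 probes were detected on all 5 arrays. The 2 probes named the same highest mouse for 679 genes (38.9%). The share was 29.98% in the 437 genes with the smallest SDs and 49.2% in the 437 with the largest. Of 7 genes named as most variable that had a second such probe, 6 (Ppp1cb, Cacng5, Ciart, Nsmf, Pde1a and Pfkp) had the same highest mouse by both. The lowest mouse was the same by both probes for 42.9% of these 7 genes, against 38.1% of all 1746. The exception for the highest mouse was Prkaa2, a catalytic subunit of AMP-activated kinase, whose brightest probe read 6.14, 8.03, 7.18, 6.63 and 7.38 and whose second probe read 6.14, 5.94, 6.12, 5.98 and 6.02. The first ranged over 3.73-fold, and the second was flat.

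The 20 steadiest genes with a mean signal above the median had SDs of 0.010 to 0.032. Rab33b, a GTPase of the Golgi, read 9.11, 9.11, 9.10, 9.12 and 9.12 in mice 145, 206, 142, 199 and 144, an SD of 0.010. Emc3, of the endoplasmic reticulum membrane complex, averaged 11.19 with an SD of 0.014, Cdc23, of the anaphase-promoting complex, 8.96 with 0.015, and Nmt1, an N-myristoyltransferase, 11.57 with 0.015. The aminoacyl-tRNA synthetases Wars (SD 0.019) and Gars (SD 0.031), the tethering factor Vps33a (SD 0.025), the actin nucleation subunit Arpc1a (SD 0.026), the phosphatase Ptpn11 (SD 0.029) and the neuronal kinase Cdk5 (SD 0.029) followed. Only 2 of these 20 genes stayed in the set when arrays were scaled to their median in place of quantile normalisation. With 1 mouse left out, 7 to 11 of the 20 stayed. Common reference genes were not among the 20. Gapdh had an SD of 0.12, Actb 0.19, Hprt 0.11, Ywhaz 0.081 and Rpl13a 0.056. Of the gene lists with at least 10 detected members, tubulins and proteasome subunits had the smallest median SDs relative to genes of similar level, at 0.69 and 0.87, and AMPA receptor genes and circadian clock genes the largest, at 1.79 and 1.59.

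Both respiratory lists and the cytosolic ribosome proteins were lowest in mouse 145 and highest in mouse 199, by small deviations. Over the 31 detected complex I genes, the median deviation from the gene mean was -0.11 in mouse 145, 0.060 in mouse 206, -0.053 in mouse 142, 0.12 in mouse 199 and -0.042 in mouse 144. Mice 206 and 199 held the highest value of 13 and 11 of the 31 genes, against 1507 and 1686 of all 7414 detected genes. Mice 145 and 144 held the lowest value of 12 and 10, against 1404 and 1446 of all detected genes. Over the 37 detected genes of complexes II to V the deviations were -0.068 in mouse 145 and 0.088 in mouse 199, and over the 54 detected cytosolic ribosome proteins -0.11 and 0.076. Mouse 145 was the lowest for 25 of the 54 ribosome proteins. The 68 detected mitochondrial ribosome proteins were also highest in mouse 199 (0.051), but lowest in mouse 142 (-0.046), with mouse 145 at -0.018. Mouse 199 also had the lowest mean bead signal of the 5, and the part of signal strength in these deviations was not tested. Cholesterol synthesis genes had a median deviation of -0.22 in mouse 199, with 9 of 14 detected members lowest and 4 highest there. Over all detected genes mouse 199 was lowest for 1700 of 7414 and highest for 1686. Myelin genes had -0.19 in mouse 206, with 9 of 17 lowest and none highest there. Over all 7414 detected genes mouse 206 was lowest for 1398 and highest for 1507.

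Single genes of the circadian clock and single immediate early genes read highest or lowest in mouse 142 by a clear margin. The clock is a loop in which Clock and Arntl drive their own repressors through DNA elements called E-boxes, and outputs such as Dbp cycle strongly over the day. Immediate early genes are transcription factors and effectors that neurons induce within minutes of activity, in part through the cyclic AMP response element (CRE). To show both elements, the RefSeq promoter windows (build GRCm38.p6, 250 bases before to 50 after the start) of 4 of the genes are printed 5′ to 3′. Capitals mark the E-box CACGTG, searched for in Ciart and Dbp, and the CRE core TGACGT, read on either strand, in Fos and Egr4.
Ciart (chr3:95882179-95882478, minus strand): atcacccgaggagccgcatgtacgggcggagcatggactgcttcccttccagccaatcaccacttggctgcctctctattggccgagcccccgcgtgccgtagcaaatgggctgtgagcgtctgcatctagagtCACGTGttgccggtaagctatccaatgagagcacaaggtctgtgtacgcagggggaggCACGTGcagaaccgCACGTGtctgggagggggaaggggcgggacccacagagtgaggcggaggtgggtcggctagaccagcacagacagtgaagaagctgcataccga
Dbp (chr7:45704997-45705296, plus strand): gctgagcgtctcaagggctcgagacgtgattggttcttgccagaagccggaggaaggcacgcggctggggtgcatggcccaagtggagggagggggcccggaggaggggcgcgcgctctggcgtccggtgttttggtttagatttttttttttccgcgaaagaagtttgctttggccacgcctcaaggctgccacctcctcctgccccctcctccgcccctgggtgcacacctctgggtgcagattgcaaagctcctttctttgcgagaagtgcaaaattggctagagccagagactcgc
Fos (chr12:85473640-85473939, plus strand): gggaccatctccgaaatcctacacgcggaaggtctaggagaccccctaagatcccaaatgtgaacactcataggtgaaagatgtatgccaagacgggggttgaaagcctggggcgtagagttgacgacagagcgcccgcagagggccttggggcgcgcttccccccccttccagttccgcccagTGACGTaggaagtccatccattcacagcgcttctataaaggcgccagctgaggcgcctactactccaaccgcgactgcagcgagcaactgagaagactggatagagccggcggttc
Egr4 (chr6:85513540-85513839, minus strand): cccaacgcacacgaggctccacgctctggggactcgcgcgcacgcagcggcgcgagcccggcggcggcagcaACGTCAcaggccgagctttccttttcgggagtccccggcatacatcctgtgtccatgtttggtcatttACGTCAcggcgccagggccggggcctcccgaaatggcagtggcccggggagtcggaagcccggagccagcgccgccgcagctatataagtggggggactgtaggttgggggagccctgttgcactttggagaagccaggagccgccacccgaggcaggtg

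The Ciart window held 3 E-boxes and the Dbp window none of these letters, the Fos window 1 CRE core and the Egr4 window 2. The windows of Nr1d1 and Nfil3 held no E-box and that of Nr4a2 no CRE core. Of all 27025 genes with a window, 8.09% held the E-box and 8.37% the CRE core. Among genes detected on all 5 arrays the shares were 12.3% and 14.0%. Of the detected clock genes with a window 3 of 11 held the E-box, and of the detected immediate early genes 7 of 19 held the CRE core. A match is a description of the letters and not a shown binding site.

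Of the 19 measured clock genes, 13 were detected on all 5 arrays. Dbp, a PAR bZIP transcription factor and clock output, read 10.56, 10.57, 9.15, 10.97 and 10.13 in mice 145, 206, 142, 199 and 144. Ciart, a repressor in the loop, read 7.33, 7.56, 5.97, 7.71 and 6.82, and its second probe 7.02, 7.30, 5.81, 7.47 and 6.92. Nr1d1 (REV-ERB alpha), a repressor of Arntl, read 8.09, 7.54, 6.84, 7.82 and 7.31. In all 3 genes mouse 142 was the lowest, at 9.15 against 10.13 in the next mouse for Dbp. Nfil3, which opposes Dbp at the same DNA element, was highest in mouse 142, at 8.41, 8.53, 9.31, 8.72 and 8.70, as was Per2, at 8.38, 8.21, 8.82, 8.36 and 8.65. For the core activators mouse 142 was highest by a narrow margin, with Clock at 9.43 against 9.36 in mouse 145 and Arntl at 6.23 against 6.22 in mouse 144. Over the 13 genes mouse 142 was highest for 5 and lowest for 4, and its median deviation was 0.00089. Of all 7414 detected genes it was highest for 1113 and lowest for 1466. Per1 averaged 8.26 ± 0.27, Tef 10.66 ± 0.21 and Rora 6.63 ± 0.08. The labels give no hour of dissection, and its part in these values was not tested.

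Of 40 measured immediate early genes, 24 were detected on all 5 arrays, and mouse 142 was the highest for 8 of them and the lowest for 5. Mouse 199 was the highest for 7 and mouse 144 for 6. Over all 7414 detected genes mouse 142 was highest for 1113 and lowest for 1466, and mice 199 and 144 were highest for 1686 and 1817. Fos read 6.13, 6.69, 7.90, 6.77 and 6.50 in mice 145, 206, 142, 199 and 144. Egr1, the brightest of the group, read 11.29, 11.46, 12.05, 11.36 and 11.47, Egr4 read 7.97, 8.14, 9.08, 7.74 and 8.03, and the nuclear receptor Nr4a2 read 6.47, 6.73, 7.85, 6.36 and 6.74. For each of these 4 transcription factors the value of mouse 142 lay above all other mice. Fosb was also highest there, at 6.49. Other members kept a different order. Arc, a synaptic effector, read 9.74, 10.10, 9.45, 10.12 and 9.61 and was lowest in mouse 142, and Junb read 8.81, 9.63, 9.13, 9.40 and 9.04 and was highest in mouse 206. Jun was highest in mouse 144 at 9.10, and Npas4 in mouse 199 at 6.81. Over all 24 genes the median deviation of mouse 142 was 0.030, so the high values belonged to single genes and not to the whole list. Dusp6 (10.99 ± 0.07), Homer1 (10.27 ± 0.14) and Dusp1 (8.31 ± 0.13) were among the steadier members.

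**Figure D5:**
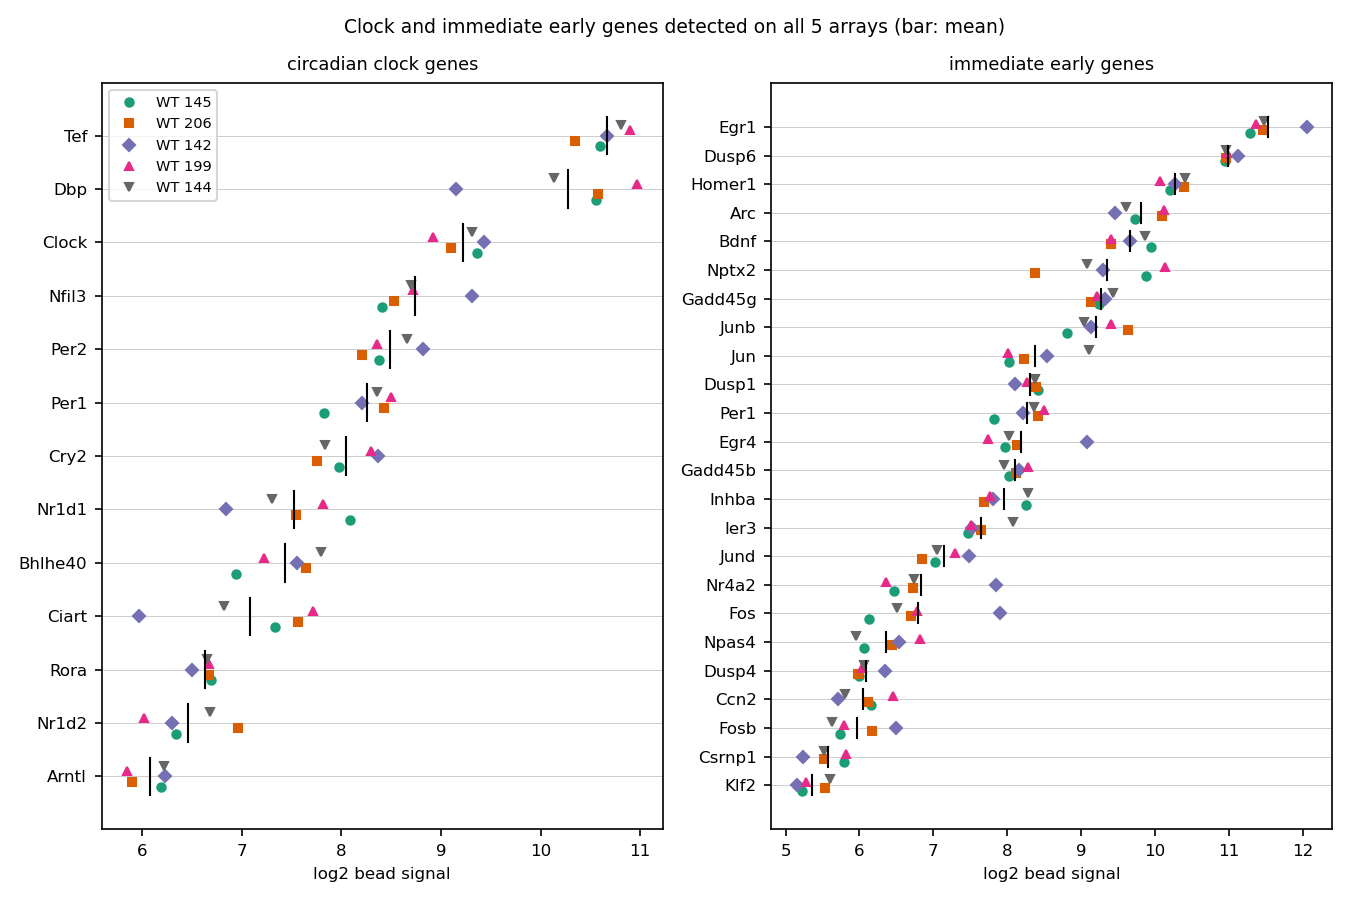
Log2 bead signal (x axis) of the 13 clock genes (left) and 24 immediate early genes (right) detected on all 5 arrays, by mouse (symbols) with the mean as a bar. Mouse 142 lies lowest for Dbp, Ciart and Nr1d1 and highest for Nfil3, Per2, Egr1, Egr4, Nr4a2 and Fos.

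The homogeneity of the WT mice was set against that of the mutant layers by a single distance per array. This was the median, over the 7414 genes, of the absolute difference between an array and the mean of the other arrays of its group, scaled for group size, with all 14 arrays normalised together. The WT distances were 0.113, 0.125, 0.114, 0.142 and 0.140 in mice 145, 206, 142, 199 and 144. The SPE distances were 0.113, 0.120, 0.119, 0.109 and 0.260 in animals 147, 146, 165, 166 and 148, and the SPI distances 0.308, 0.152, 0.178 and 0.296 in animals 147, 146, 166 and 148. WT and SPI did not overlap, while WT and SPE overlapped apart from 1 SPE array. Each distance uses the other arrays of its group, so the values within a group are not independent. The permutation tests take them as exchangeable, and their p-values are approximate. The WT mean of 0.127 ± 0.014 (SD, n = 5) was 0.107 below the SPI mean of 0.233 ± 0.080 (n = 4; two-sided exact permutation test, p = 0.016, the smallest this design can give, Benjamini-Hochberg adjusted over 2 comparisons p = 0.032). Against the SPE mean of 0.144 ± 0.065 (n = 5) the difference was -0.017 (exact permutation p = 0.90, adjusted p = 0.90, smallest possible 0.0079). The 7414 genes were chosen by detection on the WT arrays alone. Over all measured genes, with no such filter, the differences were -0.070 from SPI (exact permutation p = 0.016, adjusted p = 0.032) and -0.0095 from SPE (exact permutation p = 0.58, adjusted p = 0.58). Without the SPE array of animal 148, the sign turned, and WT mice were 0.027 more distant than SPE arrays (exact permutation p = 0.016, adjusted p = 0.016). The 3 arrays farthest from their group were also the 3 of lowest mean bead signal. It was 279 on the SPE array of animal 148, and 119 and 231 on the SPI arrays of animals 147 and 148, against 371 or more on every WT array. The SPI arrays of animals 146 and 166, at 362 and 331, were also farther from their group (0.152 and 0.178) than any WT array (at most 0.142). The part of signal strength in the distances was not tested. Without these 3 arrays, a choice made after seeing the data, WT mice were 0.013 more distant than the remaining 2 SPI arrays (exact permutation p = 0.57, adjusted p = 0.57, smallest possible 0.095).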

How the data were processed

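Expression was measured on Illumina bead arrays in 14 samples. The authors deposited a table of bead signal (intensity, not normalised) with a detection p-value per probe and array, and a second table of normalised intensity, here used as log2. The submitters' processing notes name BeadStudio but give no version of it. Biotinylated RNA was made with a linear amplification kit, per the labels' protocols.

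Starting from the deposited intensity and detection p-value columns, the 5 WT arrays were background-corrected with normexp, quantile-normalised and taken to log2 (neqc of limma 3.58.1, offset 16, in R 4.3.3). Control bead moments were inferred from the detection p-values. Background correction widens the spread of dim probes, and quantile normalisation removes differences in overall signal. Of 25697 probes, 23978 had 1 gene in the platform annotation (23962 matched RefSeq) and 1719 had none. Each gene was read from its brightest probe, a choice that bears on its rank. SDs were taken over genes detected (p under 0.05) on all 5 arrays. With 5 arrays no correlation across mice was computed.

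Genes named are the 30 with the largest SD, the 20 with the largest SD relative to genes of similar level, the 20 with the smallest SD among genes above the median signal, the 30 brightest, and members of 59 gene lists (all of lists up to 20 genes, otherwise the 6 brightest and the 4 most variable). Some members of the longer lists and genes shown for contrast (such as Arc) were named after their values were seen. The lists and genes were chosen with earlier results of these data known. Distances were compared by two-sided exact permutation tests (SciPy 1.17.1) with Benjamini-Hochberg adjustment. Distances within a group share arrays, so these p-values are approximate. The methods were tested on simulated data. The number of arrays limits the precision. All sample columns of both tables were assigned, leaving 0 unused.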

Additional observations from a re-analysis of the deposited data

Results flagged for a closer look

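Of 103 values examined for 1 sample far from the other samples of its group, 11 stood apart by Dixon's ratio, a check that chance alone passes in about 1 of 20 groups of 5. Over all 7414 genes detected on all 5 WT arrays, the share was 4.38% (325 genes), so single flags carry little weight. The flagged log2 signals were 12.91 for Cpne4 in mouse 145, 5.45 for Xlr4a in mouse 206, 7.66 for Rprm in mouse 144, 7.80 for Lefty1 in mouse 199, 12.05 for Egr1 in mouse 142, 7.85 for Nr4a2 in mouse 142, 6.19 for Calb2 in mouse 144 and 6.19 for Ttr in mouse 206. Most of these genes were examined because they vary, and their flags are not independent of that choice.

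Over whole lists, the median deviation of the CA3 markers was -0.086 in mouse 199, and that of the interneuron markers was 0.16 in mouse 144, each far from the other 4 mice. Among the interneuron genes, Gad1 read 10.58 in mouse 144 and at most 10.19 in the other mice. The distance of the SPE array of animal 148 from its group was 0.2595, apart from the other 4 SPE arrays.

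Among probes that the annotation pairs with no gene, 565 of 1719 (32.9%) were detected on all 5 WT arrays, with a median log2 signal of 7.95. They enter none of the counts of genes.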

How the results depend on the processing

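The count of 7414 genes was 6625 at a detection p under 0.01 and 7456 to 7549 with 1 mouse left out. The median SD of 0.174 was 0.169 at that stricter detection, 0.115 without background correction, 0.193 with median scaling, 0.109 in the deposited normalised table, 0.186 over genes detected on at least 1 array, 0.129 with no filter, 0.146 over genes above the median signal and 0.143 as a median absolute deviation. It was 0.165 to 0.175 with 1 mouse left out. Of 52 gene lists, 29 kept a median SD within 1.5 times without background correction and 28 in the deposited table. Of the 30 genes with the largest SD, 15 remained without background correction, 25 with median scaling, 12 in the deposited table, 13 by the median absolute deviation and 20 to 25 with 1 mouse left out; of the 20 largest relative to level, 18, 18, 18, 10 and 14 to 16. Of the 20 steadiest, 19 remained without background correction and 2 with median scaling, and 1 by the median absolute deviation. With 1 mouse left out, 7 to 11 of them remained. SDs relative to level have a median of 1 by construction and gave no value for all genes. The distance of WT from SPI arrays (-0.107) was -0.070 over genes above the median signal (adjusted p = 0.095), and -0.148 to -0.071 with 1 array left out, with an exact p of 0.029 to 0.036, the smallest such groups allow, and an adjusted p of 0.057 to 0.071. The distance of WT from SPE arrays (-0.017) was -0.032 to 0.027 with 1 array left out. Without the 3 arrays of lowest bead signal, added after seeing the data, the differences were 0.027 (SPE) and 0.013 (SPI). The SPI value rests on 2 arrays that share 1 distance, and it decides nothing. The mean of a gene's detected probes in place of its brightest moved the signal percentile of 33 of 85 named genes and the median percentile of 17 of 59 lists by more than 1 SD between mice. The cause was not tested. No paired analysis was possible because the WT mice share no animal number with the mutants. Dim probes limit what can be said: the log2 floor lies near 4.4.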

Other observations

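Genes induced by glucocorticoids had 12 of 17 measured members detected on all 5 arrays and a median signal percentile of 76.9. Sgk1, a serum- and glucocorticoid-regulated kinase, averaged 12.11 ± 0.12, Klf9 12.01 ± 0.10, Tsc22d3 9.86 ± 0.10 and Fkbp5, a chaperone of the receptor, 8.21 ± 0.11 (log2 signal, SD, n = 5). The median SD of the 12 was 0.207, against 0.276 for clock genes and 0.275 for immediate early genes, a difference that was not tested. Of metallothioneins and acute phase genes, 4 of 14 were detected (28.6%), with a median percentile of 46.9. The brightest were Mt1 at 13.24 ± 0.17 and Mt3 at 11.84 ± 0.44 and the acute phase gene Serpina3n at 12.50 ± 0.12, while probes of Lcn2 and Timp1 were detected on no array. Mt3 was highest in mouse 199 (12.41) and lowest in mouse 144 (11.29).

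Lysosomal genes had 28 of 40 members detected, with a median percentile of 78.3. The proton pump subunits Atp6v1g2 (13.88 ± 0.07) and Atp6v1b2 (13.38 ± 0.11) and the saposin precursor Psap (13.75 ± 0.12) led them. Of motor proteins and their adaptors, 29 of 48 were detected, led by the kinesin light chain Klc1 at 13.77 ± 0.08, the dynein light chain Dynll1 at 13.48 ± 0.11 and the neuronal kinesins Kif5c at 12.84 ± 0.07 and Kif5a at 11.87 ± 0.08. Of kinesins known for mitosis, Kif11 and Kif23 were detected on no array, Kif4 and Kif18b on 1 each and Kif22 on all 5, at 7.67 ± 0.30. Genes of interferon response and antigen presentation had 8 of 27 members detected, among them Ifi27 at 10.92 ± 0.31 and B2m at 10.52 ± 0.14, with probes of H2-K1, H2-D1 and Cd74 detected on none.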
